A study of Homo sapiens with 6 samples.

Results

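The collagen genes of BE(2)-C cells were examined for a response to BIX01294. Members were taken by gene symbol alone, as the letters COL, a number, the letter A and a number in the array's probe annotation. This gave 43 of the 18404 genes tested: 11 fibrillar collagens, 6 basement membrane (type IV) collagens, 10 FACIT collagens (fibril-associated collagens with interrupted helices) and 16 others, among them type VI. BE(2)-C is an established human neuroblastoma line with many copies of MYCN. All cells were grown in medium with dialyzed serum. RNA from 3 samples exposed for 24 h to 5 µM BIX01294, an inhibitor of the histone methyltransferases encoded by EHMT2 and EHMT1, was compared with RNA from 3 samples given 0.05% DMSO for 24 h. The design text calls the samples independent, and both groups are the same single line, so p-values describe the spread between samples of that line.

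Collagens are secreted proteins whose chains wind into a rope-like helix. The fibrillar types form the tensile fibres of connective tissue, type IV forms the sheet under epithelia and around vessels and nerves, FACIT types decorate fibrils, and type VI forms beaded filaments close to the cell surface. In neuroblastoma tissue the fibrillar collagens are made largely by stromal fibroblasts and Schwann cells, while cultured tumour lines differ in how much matrix they make.

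Values are log2 array signals, 1 per gene and array. Array medians of all rows lay between 6.94 and 7.01. The table has no detection call, and the signals of different probes do not rank transcripts by amount. As a guide to dim signals, 340 olfactory receptor genes had a median level of 4.82 and a 95th percentile of 6.28; the mean level of 17 of the 43 collagen genes lay under 6.28, and that of 36 lay under 7.53, the median level of all genes. All 8 measured adrenergic neuroblastoma markers of the 10 listed had levels from 9.49 to 13.50. Of these, 1 was higher and 3 were lower after BIX01294 (50%, against 23.6% of all genes). The 23.6% is not matched for level: all 8 markers lay above 7.53, and 9.98% of the genes under 7.53 were called. With an array left out, 1 to 3 adrenergic markers were called. The count was 1 without DMSO replicate 1, DMSO replicate 2 or BIX01294 replicate 3, and 2 without BIX01294 replicate 1.

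Almost no collagen gene passed the test. Of the 43, COL6A3 was higher and COL6A1 was lower after BIX01294, both chains of type VI collagen, and 41 did not pass an adjusted p of 0.05 in limma. That is 4.65% of the collagen genes, where 23.6% of all genes tested passed, 12.9% higher and 10.7% lower. Among genes with a mean level under the median, where most collagen genes lay, 9.98% passed. The largest collagen changes were 0.44 upward and -0.32 downward on the log2 scale, and 0 of 43 reached 0.5, against 4.62% of all genes. The median change was -0.03 for collagen genes and -0.01 for all genes, and the median size of a change, whatever its direction, was 0.065 against 0.114. The 95% interval of the difference lay within 0.5 on either side of 0 for 40 of the 43 (86.8% of all genes). The exceptions were COL6A1, COL6A3 and COL6A6. For the 40, a 1.41-fold change of the array signal lay outside the interval. The mean level of 17 of the 43 lay under 6.28, where signal and background are not told apart. There the interval does not bound the change in transcript amount. The BIX01294 and DMSO arrays did not overlap for 6 collagen genes, or 14.0%, where 40.1% of all genes had no overlap. These were COL6A1, COL6A2, COL6A3, COL6A6, COL4A3 and COL9A2, so 4 of the 6 encode type VI chains. The olfactory receptor genes, taken as a guide to dim signals, were measured the same way: 5.59% were called, 1.18% changed by 0.5 or more, the median size of a change was 0.077 and 10.6% had no overlap.

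**Figure D1:**
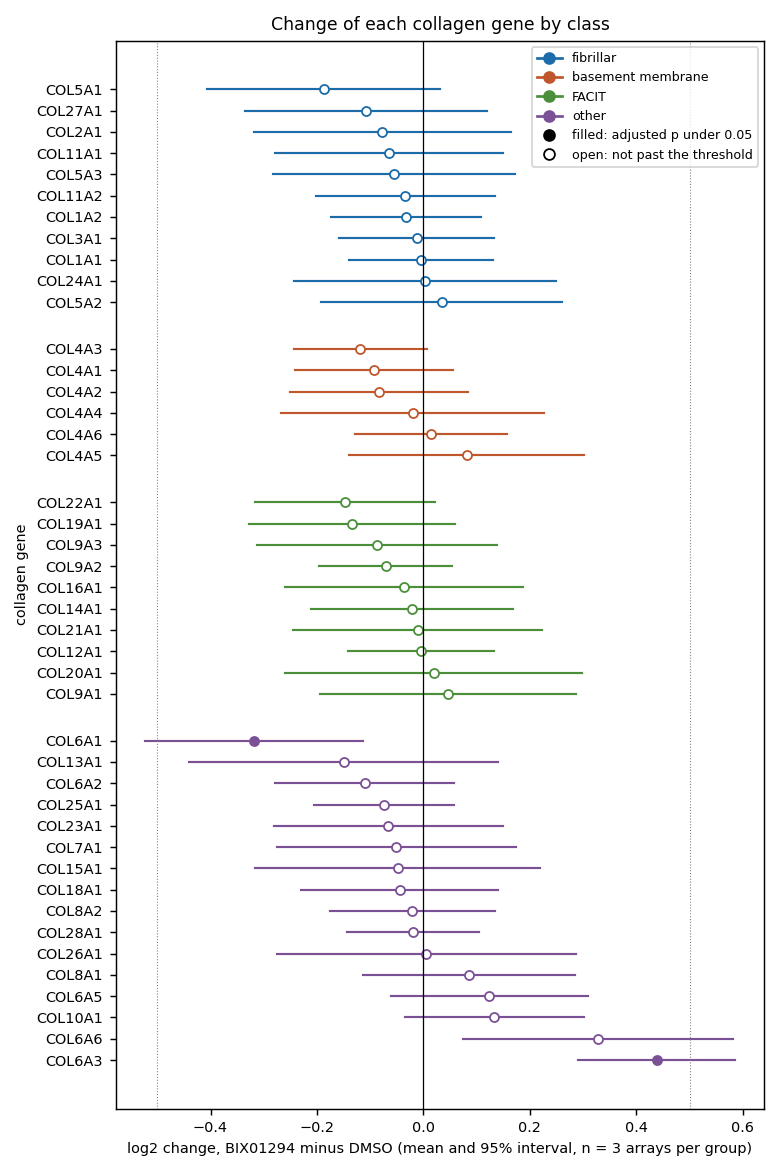
Each point is the log2 difference, BIX01294 minus DMSO, of 1 collagen gene with its 95% interval (n = 3 arrays per group), ordered by size within each class; dotted lines mark 0.5 on either side of 0. The 2 filled points, COL6A1 at -0.32 and COL6A3 at 0.44, passed the threshold, and the open points did not.

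The counts of calls were small enough to turn on single arrays and on scaling. The rising count was 2 without DMSO replicate 1, and the falling count was 0 when DMSO replicate 1 or 3, or replicate 1 or 3 of BIX01294, was left out. After quantile normalization 2 collagen genes were called higher and 0 lower, and after centring of each array on its median 2 were higher and 1 lower. Over all genes, 54.7% of calls were upward as deposited and 66.0% after centring, which moved the median change of all genes from -0.01 to 0.03.

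The collagen genes also moved together between arrays of the same treatment. DMSO replicate 3 was the highest of the DMSO arrays for 30 of the 43 (69.8%), against 32.7% of all genes and 50.6% of genes under the median level. BIX01294 replicate 1 was the lowest of its group for 36 (83.7%), against 39.8% of all genes and 51.0% of the dimmer genes, and BIX01294 replicate 2 was the highest for 36, against 41.7% and 50.9%. Measured from each gene's mean over the 6 arrays, the median collagen gene stood at -0.03, -0.02 and 0.13 in the DMSO arrays and at -0.13, 0.06 and -0.02 in the BIX01294 arrays. The arrays' medians over all genes by the same measure ran from -0.02 to 0.03. The part of this shared movement in the treatment difference was not tested beyond the values without each array.

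**Figure D2:**
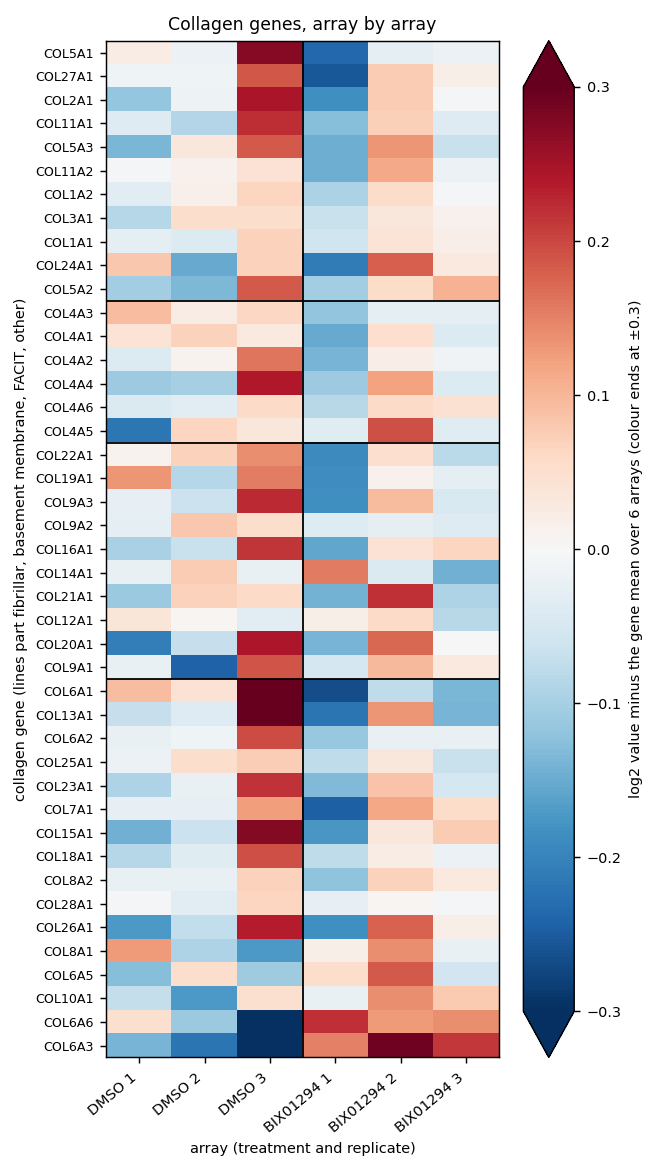
Colour gives the log2 value of each collagen gene (rows, by class) in each array (columns) minus that gene's mean over the 6 arrays. DMSO 3 is red in most rows and BIX01294 1 is blue in most rows, while COL6A3 and COL6A6 at the bottom run the other way.

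The fibrillar collagens, which build the striated fibres of skin, bone and cartilage, did not pass in any of the 11 genes in limma (0 also at an unadjusted p under 0.05). Their changes ran from -0.19 to 0.03 with a median of -0.03, and the mean was lower in 9 and higher in 2. COL1A1, which encodes the main chain of type I collagen of bone and skin, read 7.77, 7.76 and 7.87 in DMSO and 7.74, 7.84 and 7.82 in BIX01294. The groups lay on top of each other, with a difference of -0.004 ± 0.0588 (SE) and a 95% interval of -0.14 to 0.13. The largest fibrillar difference was that of COL5A1, a chain of type V collagen, which helps set fibril diameter. COL5A1 read 7.11, 7.07 and 7.36 in DMSO and 6.85, 7.06 and 7.07 in BIX01294, a difference of -0.19 ± 0.095 (SE) with an adjusted p of 0.207 in limma. The highest value was again DMSO replicate 3 and the lowest BIX01294 replicate 1, and the groups overlapped slightly. COL11A2, a chain of the cartilage collagen type XI, was the collagen gene with a second usable row; the rows differed by -0.03 and 0.03, and neither passed.

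Type IV collagen genes lie in head-to-head pairs, with the 2 genes of a pair read outward from a shared stretch of DNA, and none of the 6 genes passed in limma (0 at an unadjusted p under 0.05). In the RefSeq promoter table of GRCh38.p14 the start sites of COL4A1 and COL4A2 are separated by 126 bases, those of COL4A3 and COL4A4 by 418, and those of COL4A5 and COL4A6 by 379, or by 1415 from a second COL4A6 start. The stretch between COL4A1 and COL4A2, at chr13:110307158-110307283 on the plus strand, is shown because both genes start from it. It was chosen with their values known. Neither gene passed, and a part of the stretch in their values was not tested. Capitals mark a CCAAT box (CCAAT) and a GC box (GGGCGG), found by searching both strands.
COL4A1-COL4A2: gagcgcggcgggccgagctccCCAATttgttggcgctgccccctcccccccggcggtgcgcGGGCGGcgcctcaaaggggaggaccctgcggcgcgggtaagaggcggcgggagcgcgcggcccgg
COL4A1 and COL4A2 encode the chains of the type IV network found in nearly all basement membranes. COL4A1 read 6.43, 6.46 and 6.42 in DMSO and 6.24, 6.44 and 6.35 in BIX01294. COL4A2 read 6.79, 6.84 and 6.99 in DMSO and 6.69, 6.85 and 6.82 in BIX01294. The differences were -0.09 ± 0.0646 (SE) and -0.08 ± 0.0729 (SE), and in both genes the groups overlapped. Taken within arrays, the treatment changed the log2 difference between the pair by -0.01, with an exact permutation p of 1.0.

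The other pairs also stayed short of the threshold. COL4A3 and COL4A4 encode chains of the kidney filter and inner ear. COL4A3 read 5.92, 5.85 and 5.89 in DMSO and 5.71, 5.80 and 5.80 in BIX01294, so every DMSO array lay above every BIX01294 array, but the difference of -0.12 ± 0.0545 (SE) had an adjusted p of 0.165 in limma. COL4A4 read 5.65, 5.66 and 6.0 against 5.65, 5.88 and 5.72, with overlapping groups and a difference of -0.02 ± 0.107 (SE). COL4A5 and COL4A6 are the X-linked pair. COL4A5 read 5.37, 5.65 and 5.62 in DMSO and 5.55, 5.78 and 5.55 in BIX01294, a difference of 0.08 ± 0.0958 (SE). COL4A6 read 5.79, 5.80 and 5.89 in DMSO and 5.75, 5.89 and 5.88 in BIX01294, a difference of 0.01 ± 0.062 (SE). In both the groups overlapped. All 4 of these genes lay under 6.28, the level of the 95th percentile of the olfactory receptor genes. The within-array differences of the pairs changed by -0.10 for COL4A3 and COL4A4 and by 0.07 for COL4A5 and COL4A6, with two-sided exact permutation p-values of 0.5 and 0.6 (0.75 each after adjustment over the 5 pairs compared).

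None of the 10 FACIT collagens, which sit on fibril surfaces and link fibrils to other matrix, passed in limma (0 at an unadjusted p under 0.05). Their changes ran from -0.15 to 0.05, with 8 means lower and 2 higher. COL9A3, a chain of the cartilage collagen type IX, read 8.09, 8.05 and 8.34 in DMSO and 7.93, 8.21 and 8.07 in BIX01294. The groups overlapped, and the difference was -0.09 ± 0.0978 (SE). COL22A1, a collagen of muscle and tendon junctions, had the largest FACIT difference. COL22A1 read 7.27, 7.33 and 7.40 in DMSO and 7.07, 7.31 and 7.18 in BIX01294, a difference of -0.15 ± 0.0733 (SE) with an adjusted p of 0.198 in limma and a 95% interval of -0.32 to 0.02. COL9A2, the FACIT gene without overlap, read 7.49, 7.60 and 7.57 against 7.48, 7.49 and 7.48, a gap smaller than the printed digits and a difference of -0.07 ± 0.0545 (SE).

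Type VI collagen held both calls, in opposite directions. The 5 measured genes encode chains of a microfilament network that joins basement membrane to the fibres around it; COL6A1 and COL6A2 form a monomer with a larger chain, classically that of COL6A3 and in some tissues those of COL6A5 or COL6A6. COL6A2, COL6A5 and COL6A6 are described because they share this network, a choice made after their values were seen.

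COL6A3 read 6.31, 6.23 and 6.15 in DMSO and 6.60, 6.74 and 6.66 in BIX01294. Every BIX01294 array lay above every DMSO array, and the mean rose from 6.23 ± 0.08 to 6.67 ± 0.07 (SD, n = 3 per group). The difference of 0.44 ± 0.064 (SE) had a 95% interval of 0.29 to 0.59 and an adjusted p of 0.0021 in limma. Without any single array it stayed between 0.40 and 0.48, with adjusted p from 0.00529 to 0.0119. The DMSO level lay near 6.28, where signal and background are not told apart, and a fold is therefore left out; the filter on genes under the median level left COL6A3 out.

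COL6A1 read 8.64, 8.59 and 8.89 in DMSO and 8.28, 8.47 and 8.41 in BIX01294. The groups did not overlap, the highest value was DMSO replicate 3 and the lowest BIX01294 replicate 1, the arrays that also stood apart for the other collagen genes. Means were 8.71 ± 0.16 in DMSO and 8.39 ± 0.10 in BIX01294 (SD, n = 3 per group), a 1.25-fold fall and a difference of -0.32 ± 0.0894 (SE) with an adjusted p of 0.0349 in limma. The adjusted p no longer passed when DMSO replicate 1 (0.0589), DMSO replicate 3 (0.0701), BIX01294 replicate 1 (0.105) or BIX01294 replicate 3 (0.086) was left out, or after quantile normalization (0.0507); over all alternatives the difference stayed between -0.38 and -0.23 and the adjusted p ran from 0.00487 to 1.0.

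COL6A2, the neighbour of COL6A1 on chromosome 21, read 8.14, 8.15 and 8.36 in DMSO and 8.05, 8.14 and 8.14 in BIX01294. Its arrays separated only in the digits not printed, and the difference of -0.11 ± 0.0735 (SE) had an adjusted p of 0.342 in limma and a 95% interval of -0.28 to 0.06. COL6A6 read 7.48, 7.32 and 7.01 in DMSO and 7.65, 7.56 and 7.57 in BIX01294. All BIX01294 arrays of COL6A6 were higher, and the DMSO arrays were spread widely with replicate 3 lowest. The difference of 0.33 ± 0.11 (SE) had an adjusted p of 0.0662 in limma. COL6A6 was called in 5 alternatives, including centring (0.0406) and the fit without DMSO replicate 1 (0.0244), within a range of 0.0205 to 1.0. COL6A5 read 4.40, 4.58 and 4.42 in DMSO and 4.58, 4.71 and 4.47 in BIX01294, with overlapping groups at a level below the median olfactory receptor gene.

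Within each array, the log2 value of COL6A1 minus that of COL6A2 was 0.50, 0.44 and 0.52 in DMSO and 0.23, 0.33 and 0.28 in BIX01294, a change of -0.21. The arrays of the groups did not overlap, but the two-sided exact permutation p was 0.1, the smallest that 3 against 3 arrays allow, and 0.25 after adjustment over the 5 pairs, so unequal change of these neighbours was not shown. The remaining pair, COL6A3 and COL6A1, joins genes called in opposite directions, so its separation followed from that choice and its values are not described. Its exact permutation p of 0.1 was nevertheless among the 5 adjusted together. The adjusted p-values of the other pairs therefore depend on it, and an adjustment without it was not made.

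**Figure D3:**
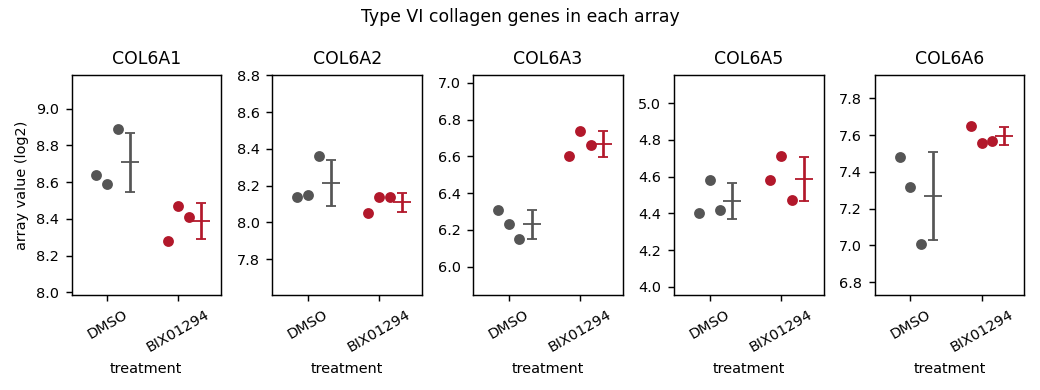
Points are the log2 values of the 5 type VI collagen genes in the 3 DMSO (grey) and 3 BIX01294 (red) arrays, with mean and SD beside them; every panel spans the same 1.2 log2 units. COL6A1 is lower and COL6A3 and COL6A6 are higher in every BIX01294 array, and COL6A5 overlaps.

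The 250 bases before the RefSeq start are shown for COL6A3, which rose, and COL6A2, a type VI gene that did not pass. COL6A1, which fell, had no promoter window and is not shown. The GRCh38.p14 coordinates are chr2:237414165-237414414, minus strand, for COL6A3 and chr21:46097862-46098111, plus strand, for COL6A2. Both genes were chosen with their values known, and a link between sequence and change was not tested. Capitals mark matches to the GC box GGGCGG, searched on both strands like the CCAAT box. They also mark the TATA box, TATAAA on either strand, and no match overlaps another.
COL6A3: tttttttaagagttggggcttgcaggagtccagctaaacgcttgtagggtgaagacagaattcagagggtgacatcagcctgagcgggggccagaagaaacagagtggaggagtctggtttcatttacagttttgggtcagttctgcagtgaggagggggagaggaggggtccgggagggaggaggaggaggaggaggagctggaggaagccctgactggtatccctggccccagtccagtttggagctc
COL6A2: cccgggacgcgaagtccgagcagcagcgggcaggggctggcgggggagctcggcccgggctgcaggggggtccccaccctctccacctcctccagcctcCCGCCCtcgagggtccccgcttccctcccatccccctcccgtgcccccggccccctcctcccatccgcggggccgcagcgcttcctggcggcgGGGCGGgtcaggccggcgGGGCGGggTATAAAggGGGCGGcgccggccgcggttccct
The COL6A2 stretch has a GC content of 79.6%, 4 GC boxes and 1 TATA box, and the COL6A3 stretch a GC content of 56.0% and none of these letters on either strand. Promoter windows of 300 bases were matched for 31 of the 43 collagen genes, COL6A1 not among them. Of their 43 windows, 55.8% held a GC box, 30.2% a CCAAT box and 16.3% a TATA box, against 45.0%, 34.6% and 11.5% of the 35116 windows of all genes. Their median GC content was 64.0%, against 58.7%.

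The remaining 11 genes of the other classes did not pass. They comprise COL7A1 of the anchoring fibrils of skin, the short-chain COL8A1, COL8A2 and COL10A1, the membrane-spanning COL13A1, COL23A1 and COL25A1, COL15A1 and COL18A1 of basement membrane zones, COL26A1 and COL28A1. These 3 membrane-spanning collagens differed by -0.15 to -0.07 and the short-chain ones by -0.02 to 0.13. COL17A1, whose symbol fits the rule, is not among the 43 genes. COL10A1, the collagen of hypertrophic cartilage, read 6.30, 6.20 and 6.42 in DMSO and 6.35, 6.51 and 6.45 in BIX01294. The groups overlapped, and the difference of 0.13 ± 0.073 (SE) did not pass (adjusted p 0.242 in limma), but it did after quantile normalization (0.0438, within a range of 0.0438 to 1.0); it is named for that, after its values were seen.

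Genes that make, carry, bind or break down collagen were followed in 6 lists. The shares called were 27.8%, 25% and 27.3% for folding, export and receptors, and 53.8% and 38.5% for cross-linking and basement membrane partners. The share was 10.5% for degradation and 23.6% for all genes. These shares are not matched for level: of genes under the median level, 9.98% were called. Under that level lay 3 of 18 folding, 5 of 16 export and 6 of 11 receptor genes. The same held for 6 of 13 cross-linking, 8 of 13 basement membrane and 12 of 19 degradation genes. Of 18 measured genes of chain modification and folding, 2 rose and 3 fell. TMEM38B, an ion channel of the endoplasmic reticulum needed for collagen assembly in bone, rose from 8.08, 8.16 and 7.87 to 8.75, 8.60 and 8.79, a difference of 0.68 ± 0.0884 (SE). CRTAP, a subunit of the complex that 3-hydroxylates proline, fell from 10.45, 10.42 and 10.42 to 10.03, 9.98 and 10.05, a difference of -0.41 ± 0.0514 (SE). In both genes the arrays of the groups were clearly apart. PLOD1, a lysyl hydroxylase, differed by -0.27 ± 0.0591 (SE) and PPIB, a proline isomerase, by 0.20 ± 0.0521 (SE). This list gave 5 calls, but 2 when either DMSO replicate 1 or BIX01294 replicate 3 was left out, and 3 when DMSO replicate 2 or replicate 1 or 2 of BIX01294 was; PLOD1 lost its call without DMSO replicate 1 or BIX01294 replicate 3, and PPIB without each array other than DMSO replicate 3.

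In procollagen export and propeptide removal, 2 of 16 genes rose and 2 fell. ADAMTS3, which trims the amino-terminal propeptide, fell from 10.81, 10.82 and 10.72 to 10.28, 10.34 and 10.32. The mean of ADAMTS3 was 1.38-fold lower, with no overlap. PCOLCE2, an enhancer of carboxy-terminal trimming, rose 1.35-fold, and PREB, which starts assembly of transport vesicles at the endoplasmic reticulum, rose 1.33-fold. MIA3, which loads procollagen into such vesicles, differed by -0.20 ± 0.0587 (SE) and lost its call after centring and without each array other than DMSO replicate 3.

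Cross-linking and fibril assembly had the highest share called of the 6 lists, with 1 of 13 genes higher and 6 lower and a median change of -0.19, against -0.01 for all genes. Decorin (DCN), a proteoglycan that coats fibrils, read 8.43, 8.38 and 8.20 in DMSO and 6.94, 6.73 and 6.82 in BIX01294. The gap between the groups was more than 1 log2 unit, and the difference was -1.50 ± 0.081 (SE). Lumican (LUM), another fibril proteoglycan, read 10.24, 10.34 and 10.17 against 9.63, 9.60 and 9.65. LOXL3, a lysyl oxidase that cross-links collagen, had means of 8.01 ± 0.08 in DMSO and 7.48 ± 0.01 in BIX01294 (SD, n = 3 per group), a 1.45-fold fall. SPARC, a collagen-binding protein, rose 1.27-fold.

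Among 11 collagen receptors 1 rose and 2 fell. DDR2, a receptor tyrosine kinase switched on by fibrillar collagen, read 12.26, 12.20 and 12.22 in DMSO and 11.52, 11.59 and 11.62 in BIX01294. The groups were far apart; DDR2 fell 1.57-fold, and its second row differed by -0.64. ITGA11, an integrin chain that binds fibrillar collagen, read 7.48, 7.51 and 7.40 in DMSO and 8.11, 8.20 and 8.07 in BIX01294, a 1.58-fold rise. MRC2, which takes up collagen for degradation, fell 1.43-fold. In collagen degradation, 1 of 19 rose and 1 fell. TIMP1, an inhibitor of matrix metalloproteinases, rose 1.62-fold, from 11.39, 11.44 and 11.42 to 12.20, 12.09 and 12.05, and MMP2, a gelatinase, fell 1.19-fold.

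Of the partners of type IV collagen in basement membranes, 1 of 13 rose and 4 fell, beside 0 of 6 type IV genes; the contrast of these counts was not tested. Nidogen 2 (NID2), which bridges laminin and type IV collagen, fell 2.50-fold, from 8.78, 8.87 and 8.65 to 7.39, 7.53 and 7.41. The laminin chains LAMB1 and LAMB2 fell 1.25-fold and 1.28-fold, and LAMA4 differed by 0.28 ± 0.0793 (SE), a call lost without each array other than DMSO replicate 1. The list gave 3 calls when DMSO replicate 2 or 3, or replicate 1 or 3 of BIX01294, was left out.

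**Figure D4:**
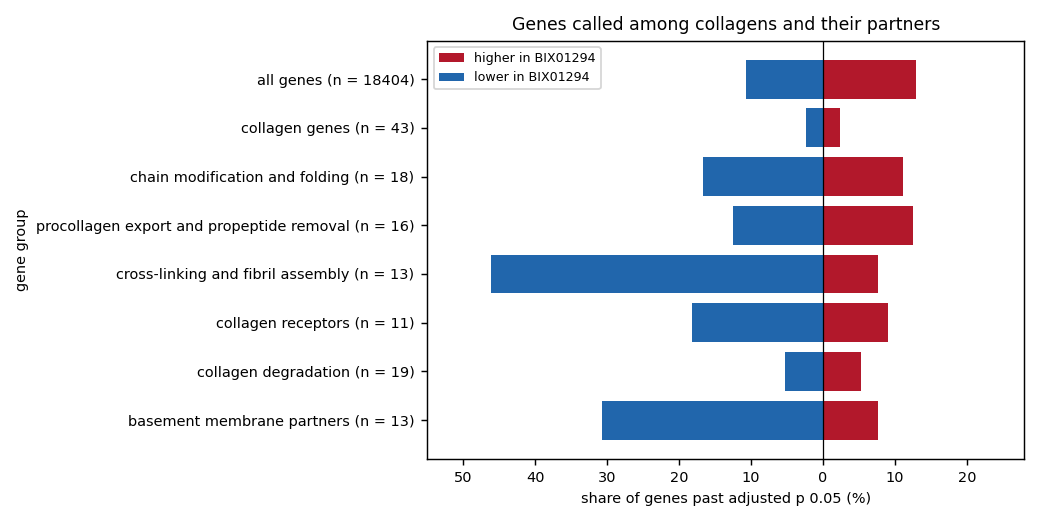
Bars give the percentage of genes past an adjusted p of 0.05, higher in BIX01294 to the right and lower to the left, for all genes, the 43 collagen genes and 6 lists of collagen partners. The collagen bar (4.65% in all) is the shortest, and the list of cross-linking and fibril assembly (53.8%) the longest.

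Markers of other cell states were read in the same arrays. Of 15 markers of mesenchymal cells or fibroblasts, 4 were higher and 5 lower, with a median change of -0.09. That is 60.0% called, where 23.6% of all genes were (12.9% higher and 10.7% lower). The shares are not matched for level, as 5 of the 15 lay under the median level of all genes. DCN and LUM stand in this list and among the partners. Vimentin (VIM), an intermediate filament protein, rose from 10.47, 10.40 and 10.32 to 11.29, 11.21 and 11.16, and PDGFRB, a growth factor receptor of fibroblasts and pericytes, fell from 10.03, 10.04 and 9.97 to 8.82, 8.90 and 8.85. The summed linear signal of the 15 markers was 9300 to 9762 in DMSO and 9814 to 10222 in BIX01294. This sum weighs bright probes most, such as those of THY1 (mean 11.06 in DMSO and 11.49 in BIX01294) and VIM. Of the 15 means, 9 were lower in BIX01294. Of 7 measured Schwann cell markers out of 10 (14.3% called), S100B was higher (0.42 ± 0.0999 SE; called in neither fit without BIX01294 replicate 1 or 3), and the summed signal was 659 to 674 in DMSO and 651 to 724 in BIX01294. The part of other cell states in the collagen and partner results was not tested, and in RNA from whole cultures fewer cells of a kind and less RNA per cell cannot be told apart.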

How the data were processed

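The deposited table holds 1 log2 expression value per transcript cluster and array for 6 samples; per the submitters' processing notes it was made with Partek. How background was corrected, arrays were scaled or probes were summarized is not stated, and any scaling by the authors could hide a shift common to most genes. The log2 scale was read from the deposited values, which run from 1.93 to 14.93. Arrays carry no counts, so their number limits the precision.

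Of 32321 rows, 19158 had exactly 1 symbol, and the row with the highest mean was kept for each of 18404 genes. A row listing COL1A2 with another gene was left out. Entrez identifiers of 18376 genes matched the RefSeq table of GRCh38.p14, used for current names; 120 of 130 listed genes were measured. Deposited values were fitted unchanged, using limma 3.58.1 under R 4.3.3 (treatment as the only term, empirical Bayes, two-sided, Benjamini-Hochberg over 18404 genes, threshold 0.05), after a test on simulated data. Intervals are 95% from the moderated fit. Pairs of genes were compared within arrays by an exact permutation test (SciPy 1.17.1).

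Genes named by rule are collagen genes past the threshold, the highest-mean and most changed member of each class, the type IV pairs, and up to 4 of the largest calls in each partner list. Members, classes, lists and tests were chosen with earlier results of these data known. Same-numbered arrays did not deviate together (correlations 0.19, -0.18 and 0.05), so the numbers were not used as pairs. Alternatives were quantile normalization, centring, 2 filters on dim genes, mean of all rows, trend with robust estimation, array weights, replicate block, all rows, limma's treat and leaving out each array; pair differences were recomputed after quantile normalization and without each array, a choice made after seeing the data.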

Additional observations from a re-analysis of the deposited data

How the results depend on the processing

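The absence of calls among fibrillar, type IV and FACIT collagen genes held in all 16 alternatives, as far as their members were tested (the filter on genes under the median level left 7 of 43 collagen genes). Collagen genes called higher numbered 2 after quantile normalization, after centring, with the filter at the lower quartile, with trend and robust estimation and with the replicate block, and 0 with the filter at the median and with treat; leaving out an array gave 1 to 2. Those called lower numbered 0 after quantile normalization and with treat, and 0 to 1 without an array. The other collagen genes called numbered 1 with the filter at the median, 0 with treat and 1 to 2 without an array. With limma's treat, which asks for more than 0.5 on the log2 scale, 145 of all genes remained past the threshold; the lists of cross-linking and of basement membrane partners gave 1 each, the mesenchymal list 2, and the lists of folding, export, receptors, degradation, Schwann cell and adrenergic markers 0. The replicate block lowered chain modification and folding from 5 to 3 and the adrenergic markers from 4 to 2, with 1987 genes higher and 1654 lower over all genes; COL6A6 passed with it (adjusted p 0.0454). Without 1 array, all genes called ran from 3018 to 3663, folding from 2 to 4, export from 3 to 5, cross-linking from 5 to 7, receptors from 3 to 4, degradation from 2 to 3, basement membrane partners from 3 to 4, mesenchymal markers from 8 to 10, Schwann cell markers from 0 to 1 and adrenergic markers from 1 to 3. No named gene that passed changed direction in any alternative that tested it. The cause of these movements was not tested, beyond fewer arrays or fewer genes in the fit.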
